A study of Homo sapiens with 6 samples.

Results

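Small proline-rich protein (SPRR) genes were followed by RNA sequencing in HaCaT cells, an immortalised human keratinocyte line, here cultured in DMEM with serum. The 7 genes SPRR1A, SPRR1B, SPRR2A, SPRR2D, SPRR2E, SPRR2F and SPRR3 were taken by symbol from a table of 27945 genes, and all 7 reached 1 RPKM (reads scaled to exon length and library depth) in at least 1 library. Of the whole table, 12925 genes did so. The 6 libraries comprised 2 of MAPK14-null cells given IL-1α in PBS for 4 h, 2 of wild-type cells given IL-1α in the same way, 1 of unstimulated MAPK14-null cells and 1 of unstimulated wild-type cells. The unstimulated cells received PBS for 4 h. MAPK14 encodes the p38α kinase, and the series compares steady-state with IL-1α-driven transcription in the presence and absence of p38α. The labels describe neither the edit in MAPK14 nor whether the knockout (KO) cells are 1 clone, and they do not say that the replicates came from separate cultures. Each p-value therefore measures only the spread between these libraries, which may be technical. In bulk RNA, fewer cells expressing a gene and less of its RNA per cell cannot be told apart.

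SPRR proteins are built from short proline-rich repeats and are precursors of the cornified envelope, the protein shell that replaces the plasma membrane of a terminally differentiated keratinocyte. Transglutaminases cross-link them to each other and to loricrin and involucrin, so that they act as bridges within the shell. The genes lie side by side in the epidermal differentiation complex of chromosome 1, and they are known to be induced in stressed, wounded and inflamed epithelia. IL-1α, which keratinocytes themselves store and release on injury, signals through the IL-1 receptor to NF-κB and to the MAP kinases, p38α among them, and AP-1 factors lie downstream of the MAP kinases.

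The upstream regions of the genes are shown because SPRR promoters are classical targets of AP-1, octamer and Ets or interferon-regulatory factors. The sequences are the 250 bases before the annotated start in RefSeq on GRCh38.p14, read on the strand of the gene. They were found for 5 of the 7 genes; SPRR2D and SPRR2E are named only. SPRR2B and SPRR2G, neighbours that were hardly transcribed or not detected, are shown beside them. Capitals mark matches on either strand to AP-1 (TGANTCA), the octamer (ATTTGCAT), the composite Ets and interferon-regulatory element (GGAA, then 2 bases of any kind, then GAAA) and the TATA box (TATAAA).
SPRR1A upstream, chr1:152983831-152984080, plus strand: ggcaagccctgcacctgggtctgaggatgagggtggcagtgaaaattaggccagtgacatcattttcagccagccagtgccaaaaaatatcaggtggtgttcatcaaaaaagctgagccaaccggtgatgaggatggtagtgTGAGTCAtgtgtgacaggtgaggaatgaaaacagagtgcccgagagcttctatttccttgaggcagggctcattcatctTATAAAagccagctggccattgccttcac
SPRR1B upstream, chr1:153030953-153031202, plus strand: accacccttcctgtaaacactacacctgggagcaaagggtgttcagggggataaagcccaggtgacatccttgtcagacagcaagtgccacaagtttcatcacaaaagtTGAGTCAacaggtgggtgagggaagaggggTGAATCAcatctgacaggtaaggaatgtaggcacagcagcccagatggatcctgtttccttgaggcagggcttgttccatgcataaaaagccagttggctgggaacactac
SPRR2A upstream, chr1:153057513-153057762, minus strand: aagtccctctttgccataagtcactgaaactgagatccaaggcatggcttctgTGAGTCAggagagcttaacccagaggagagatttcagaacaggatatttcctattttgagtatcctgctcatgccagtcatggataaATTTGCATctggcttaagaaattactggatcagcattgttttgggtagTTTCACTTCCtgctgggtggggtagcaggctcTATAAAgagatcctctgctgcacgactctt
SPRR2F upstream, chr1:153113517-153113766, minus strand: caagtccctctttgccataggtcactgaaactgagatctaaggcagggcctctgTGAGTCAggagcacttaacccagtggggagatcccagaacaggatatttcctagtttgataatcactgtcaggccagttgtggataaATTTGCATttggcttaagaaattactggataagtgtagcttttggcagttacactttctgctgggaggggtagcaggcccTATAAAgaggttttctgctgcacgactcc
SPRR3 upstream, chr1:153001499-153001748, plus strand: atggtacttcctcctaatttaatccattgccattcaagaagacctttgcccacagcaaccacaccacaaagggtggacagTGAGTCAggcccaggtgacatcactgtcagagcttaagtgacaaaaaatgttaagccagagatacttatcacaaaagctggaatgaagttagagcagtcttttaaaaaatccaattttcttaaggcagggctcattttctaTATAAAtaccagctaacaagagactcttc
SPRR2B upstream, chr1:153071612-153071861, minus strand: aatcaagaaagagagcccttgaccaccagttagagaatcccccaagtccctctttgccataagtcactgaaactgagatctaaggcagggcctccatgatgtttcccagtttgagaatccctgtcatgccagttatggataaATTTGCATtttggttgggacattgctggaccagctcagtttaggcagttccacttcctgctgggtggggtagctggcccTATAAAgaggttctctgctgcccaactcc
SPRR2G upstream, chr1:153150891-153151140, minus strand: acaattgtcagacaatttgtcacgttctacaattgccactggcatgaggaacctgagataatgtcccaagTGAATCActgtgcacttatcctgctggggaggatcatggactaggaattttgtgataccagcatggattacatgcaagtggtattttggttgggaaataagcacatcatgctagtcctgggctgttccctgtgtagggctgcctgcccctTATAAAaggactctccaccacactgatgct
An AP-1 word stood in all 5 windows of the measured genes, and SPRR1B held it at 2 places. It was absent from the SPRR2B window, present in that of SPRR2G (listed at 0 in every library) and found in 6.57% of 35116 RefSeq windows of the same length. The octamer stood in SPRR2A, SPRR2F and SPRR2B, against 1.63% of all windows. The composite element was matched in SPRR2A, on the strand opposite to the gene, and in 2.41% of all windows. A TATA word was found in SPRR1A, SPRR2A, SPRR2F, SPRR3, SPRR2B and SPRR2G and in 10.7% of all windows. An NF-κB word (GGG, then 5 bases of any kind, then CC; not capitalised) matched in SPRR2F and SPRR2G at overlapping positions, but it also matches 54.4% of all windows. None of the words in capitals overlapped another. The windows of SPRR4 and of SPRR5, which was not among the genes measured, are not shown. Each held a TATA word and none of the other words, AP-1 included. Aligned end to end, the SPRR2A and SPRR2F windows were 85.7% identical, SPRR2A and SPRR2B 59.4%, and SPRR1A and SPRR1B 64.2%. These matches are descriptions of the letters and not evidence of binding.

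The SPRR2 genes resemble each other along the whole transcript. SPRR2D and SPRR2F transcripts were 92.7% identical, SPRR2A and SPRR2D 90.6%, and SPRR2A and SPRR2E 89.0%. Of all 50-base words in a transcript, 33.5% of those in SPRR2D, 32.7% in SPRR2A, 25.4% in SPRR2E and 18.2% in SPRR2F occurred in another gene, always another SPRR2 gene. SPRR1A and SPRR1B shared words only with each other (11.3% of a short SPRR1A transcript model and 4.38% of SPRR1B), and the share was 0% for SPRR3. Reads from such stretches may have been assigned to a paralog or dropped, so each single SPRR2 value is uncertain, and to a lesser extent those of SPRR1A and SPRR1B, and the summed level of SPRR2A, SPRR2D, SPRR2E and SPRR2F is given beside them without a p-value. The genes lie on chromosome 1 (hg19) in the order SPRR1A, SPRR3, SPRR1B, SPRR2D, SPRR2A, SPRR2E and SPRR2F, from 152956564 to 153085991, and the 4 SPRR2 genes occupy 73.8 kb.

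Sequencing depth, recovered from the values, ran from 16294208 to 34967592 reads, of which 80.1% to 83.2% fell in exons. MAPK14 RNA itself was still present, at 10.99 and 7.41 RPKM in KO IL-1α cells, 13.3 and 14.8 RPKM in wild-type (WT) IL-1α cells, 11.3 RPKM in unstimulated KO cells and 14.4 RPKM in unstimulated WT cells, so MAPK14 RNA does not mark the KO libraries by its absence. All 10 keratinocyte markers were at 1 RPKM or more in every library, but their sum was 3618 and 3518 RPKM in KO IL-1α cells and 4104 RPKM in unstimulated KO cells, against 6812, 5793 and 6894 RPKM in the WT IL-1α and unstimulated WT libraries. KRT17 (747 and 267 RPKM in KO IL-1α cells, 2167 and 1745 RPKM in WT IL-1α cells), SFN and KRT14 carried this gap. KRT5 (712 and 901 RPKM in KO IL-1α cells, 767 and 752 RPKM in WT IL-1α cells) and KRT6A overlapped between genotypes under IL-1α, and TP63 overlapped too (51.1 and 34.7 RPKM in KO IL-1α cells, 27.8 and 35.9 RPKM in WT IL-1α cells). Fibroblast markers summed to 0.805 to 2.59 RPKM, melanocyte markers to 0.328 to 0.611 RPKM with TYR at 0, and leukocyte markers to 0.473 to 1.04 RPKM with LYZ at 0. Endothelial markers summed to 1.82 to 11.96 RPKM, nearly all of it CDH5, with PECAM1 at 0. The part of the lower keratinocyte marker sum in the SPRR differences between genotypes was not tested.

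Under IL-1α the SPRR2 genes ranked among the more abundant transcripts of wild-type cells, and p38α-null cells held less of them. Together the 7 genes took 0.0170% and 0.00928% of exon reads in KO IL-1α cells, 0.127% and 0.0745% in WT IL-1α cells, 0.000807% in unstimulated KO cells and 0.00197% in unstimulated WT cells. SPRR2A ranked at place 1127 and 1355 of all genes by RPKM in the KO IL-1α libraries, against place 96 and 150 in the WT IL-1α libraries.

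SPRR2A, an envelope precursor whose mouse counterpart also kills bacteria in the gut, was the most abundant SPRR transcript in all 4 IL-1α libraries. It stood at 58.5 and 50.6 RPKM in KO IL-1α cells, 483 and 295 RPKM in WT IL-1α cells, 1.11 RPKM in unstimulated KO cells and 4.80 RPKM in unstimulated WT cells. The 2 genotypes did not overlap under IL-1α, and both were far above their unstimulated libraries. SPRR2D, its closest match among the SPRR2 transcripts measured here, had 26.8 and 24.6 RPKM in KO IL-1α cells, 369 and 206 RPKM in WT IL-1α cells, 0.253 RPKM in unstimulated KO cells and 1.85 RPKM in unstimulated WT cells. The KO pair lay close together, while the WT pair was spread as for SPRR2A.

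SPRR2E and SPRR2F, envelope precursors of the same subfamily, were near or below detection without IL-1α. SPRR2E stood at 25.4 and 9.43 RPKM in KO IL-1α cells, 212 and 132 RPKM in WT IL-1α cells, 0.296 RPKM (7 reads) in unstimulated KO cells and 0.353 RPKM (4 reads) in unstimulated WT cells. SPRR2F stood at 20.3 and 9.92 RPKM in KO IL-1α cells and 155 and 91.9 RPKM in WT IL-1α cells. It had 0 reads in both unstimulated libraries, which allows up to 0.129 RPKM in KO and 0.269 RPKM in WT cells at 3 reads, counting error only. For both genes KO replicate 1 was above KO replicate 2, and both KO libraries were below both WT libraries. The sum of the 4 SPRR2 genes was 131 and 94.5 RPKM in KO IL-1α cells, 1219 and 725 RPKM in WT IL-1α cells, 1.65 RPKM in unstimulated KO cells and 7.002 RPKM in unstimulated WT cells.

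SPRR1A and SPRR1B, the cornifins, are markers of squamous differentiation, and SPRR1A is also known from regenerating rodent neurons. SPRR1A stood at 34.3 and 4.59 RPKM in KO IL-1α cells, 128 and 73.5 RPKM in WT IL-1α cells, 1.98 RPKM in unstimulated KO cells and 2.91 RPKM in unstimulated WT cells. SPRR1B stood at 41.7 and 12.4 RPKM in KO IL-1α cells, 186 and 106 RPKM in WT IL-1α cells, 6.70 RPKM in unstimulated KO cells and 15.1 RPKM in unstimulated WT cells. In KO cells under IL-1α, replicate 2 was well below replicate 1 for both genes, and SPRR1B there (12.4 RPKM) was no higher than in unstimulated WT cells. SPRR3, known from oesophageal and oral epithelium, was the least abundant under IL-1α at 0.305 and 0.636 RPKM in KO cells and 4.51 and 2.94 RPKM in WT cells. Without stimulation it had 0 reads in KO cells and 9 reads (0.599 RPKM) in WT cells.

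**Figure D1:**
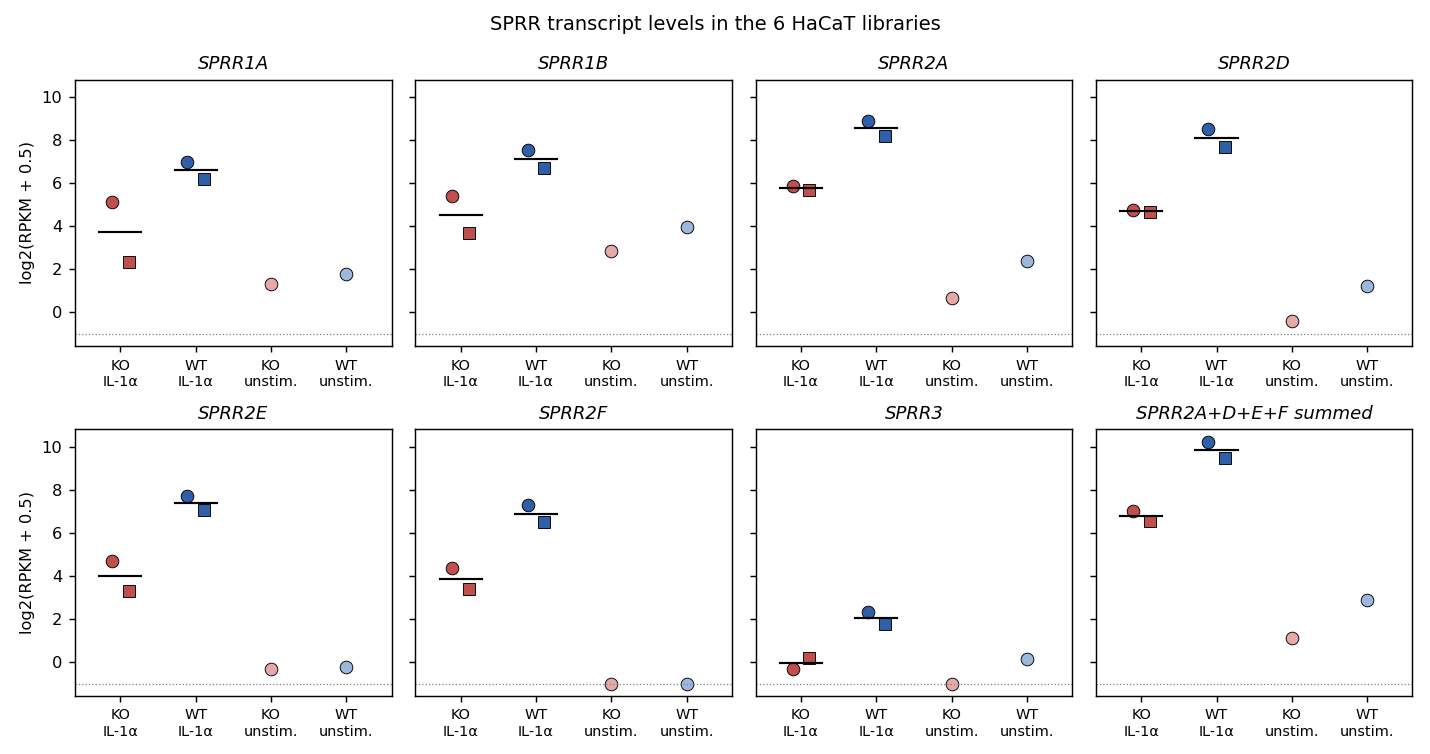
Levels of the 7 SPRR genes and of the summed SPRR2 genes as log2(RPKM + 0.5), 1 point per library, with KO in red and WT in blue, dark under IL-1α and pale without; circles are replicate 1, squares replicate 2, the bar is the mean of the pair and the dotted line marks 0 RPKM. In every panel both WT IL-1α points lie above both KO IL-1α points, from 4.51 and 2.94 RPKM for SPRR3 in WT cells to 483 and 295 RPKM for SPRR2A.

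For 6 of 7 genes WT IL-1α cells had the highest mean and KO IL-1α cells the next. For SPRR1B, KO replicate 2 (12.4 RPKM, exact 95% counting interval 10.8 to 14.1) nevertheless lay below unstimulated WT cells (15.1 RPKM, 12.8 to 17.6), and the intervals overlapped. The exception was SPRR3, where unstimulated WT cells (0.599 RPKM) lay between the 2 KO IL-1α libraries (0.305 and 0.636 RPKM) and the counting interval of the unstimulated library (0.274 to 1.14 RPKM) spanned both. At the lower end, unstimulated WT cells exceeded unstimulated KO cells beyond counting error for SPRR1B, SPRR2A, SPRR2D and SPRR3, and did not do so for SPRR1A, SPRR2E and SPRR2F. Both KO IL-1α libraries were below both WT IL-1α libraries for 7 of 7 genes, against 16.3% of all genes tested. Both WT IL-1α libraries were above the unstimulated WT library for 7 of 7 (27.5% of all genes), and both KO IL-1α libraries above the unstimulated KO library for 7 of 7 (27.8%).

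In KO cells IL-1α still raised SPRR2D and SPRR2A, which had the largest increases of all 12925 genes tested on the log2(RPKM + 0.5) scale. SPRR2D rose by 5.12 ± 0.35 (SE) and SPRR2A by 5.10 ± 0.31, each with a limma adjusted p = 0.0250. SPRR2F (4.88 ± 0.48, adjusted p = 0.0531) and SPRR2E (4.33 ± 0.57, adjusted p = 0.0928) came next by size without passing at 0.05. Thus 2 of 7 genes passed, against 0.0696% of all genes. As ratios of mean RPKM, SPRR2D was 102-fold higher under IL-1α on 6 unstimulated reads and SPRR2A 49.4-fold higher on 26. SPRR2E was 58.9-fold higher on 7 unstimulated reads, and SPRR2F at least 118-fold higher against the floor of 3 reads.

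SPRR1A and SPRR1B did not pass in KO cells, and their values there depended on 1 library. The log2 difference of SPRR1A was 2.43 ± 1.02 (limma adjusted p = 1) with both replicates, 3.81 without KO replicate 2 and 1.04 without KO replicate 1. For SPRR1B it was 1.70 ± 0.68 (adjusted p = 1), 2.55 without replicate 2 and 0.84 without replicate 1. SPRR3 had a log2 difference of 0.94 ± 0.39 (adjusted p = 1) on 6 and 17 reads against 0. No gene passed in this comparison when any 1 of the 4 IL-1α libraries was left out, although SPRR2A stayed between 4.99 and 5.20 and SPRR2D between 5.06 and 5.18 in those fits. Both calls were also lost without the filter on low values (adjusted p = 0.133 and 0.182) and with voom on rebuilt reads (0.0626 and 0.0934).

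In WT cells IL-1α raised all 4 SPRR2 genes, and they held the 4 highest places of the 12925 genes. SPRR2F rose by 7.91 ± 0.48 (limma adjusted p = 0.00773), SPRR2E by 7.62 ± 0.57 (adjusted p = 0.0134), SPRR2D by 6.87 ± 0.35 (adjusted p = 0.00516) and SPRR2A by 6.16 ± 0.31 (adjusted p = 0.00516). In mean RPKM these were increases of at least 460-fold for SPRR2F, 488-fold for SPRR2E on 4 unstimulated reads, 155-fold for SPRR2D and 81.1-fold for SPRR2A. So 4 of 7 genes passed, against 0.217% of all genes in either direction (0.201% higher), and the median change of all genes was -0.14.

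SPRR1A (4.84 ± 1.02, adjusted p = 0.133), SPRR1B (3.18 ± 0.68, adjusted p = 0.135) and SPRR3 (1.92 ± 0.39, adjusted p = 0.128) did not pass limma's test in WT cells. SPRR1A was still at place 6 of all genes by size, at 34.6-fold in mean RPKM, and SPRR1B was 9.69-fold higher under IL-1α. Because all groups share 1 estimate of spread, the SPRR1A test carried the distance between the KO replicates: its WT response passed when either KO library was left out (adjusted p = 0.0461 without KO replicate 2 and 0.0465 without KO replicate 1). Without either WT IL-1α library no gene passed, with SPRR2A at 5.802 and 6.51. All 4 SPRR2 calls were lost without the filter on low values (adjusted p = 0.0952 to 0.170), and those of SPRR2E (0.0981) and SPRR2F (0.110) with voom. Transcripts under 1 kb, to which all 7 genes belong, had a median change of -0.53 in WT cells and -0.01 in KO cells.

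**Figure D2:**
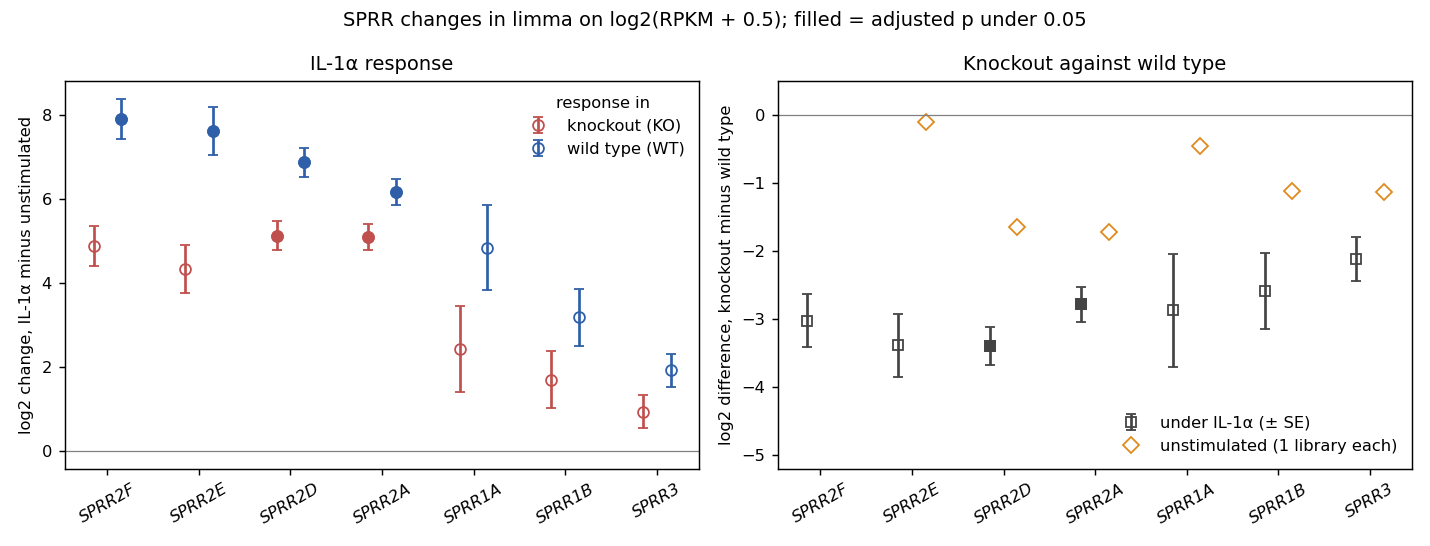
Log2 differences of the 7 SPRR genes on the log2(RPKM + 0.5) scale; left, IL-1α minus unstimulated in KO (red) and WT cells (blue); right, KO minus WT under IL-1α (squares) and without stimulation (diamonds, SPRR2F left out at 0 reads in both). Bars are limma standard errors and filled symbols have an adjusted p under 0.05; the WT response lies above the KO response for all 7 genes, and 2 genes, SPRR2D and SPRR2A, are filled in both genotypes and on the right.

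Under IL-1α the mean of each of the 7 SPRR genes was lower in KO than in WT cells, and SPRR2D and SPRR2A passed the test. SPRR2D was lower by a log2 difference of -3.40 ± 0.28 (limma adjusted p = 0.0342) and SPRR2A by -2.78 ± 0.26 (adjusted p = 0.0421). In mean RPKM SPRR2D was 11.2-fold and SPRR2A 7.13-fold lower in KO cells. These 2 of 7 genes passed, against 0.155% of all genes (14 lower, 0.108%). SPRR2E (-3.39 ± 0.46, adjusted p = 0.0800) and SPRR2F (-3.03 ± 0.39, adjusted p = 0.0730) had differences of like size but did not pass. The summed SPRR2 level was 113 ± 25.8 RPKM in KO cells and 972 ± 350 RPKM in WT cells (SD, n = 2 each), 8.62-fold lower in KO cells.

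SPRR1A (-2.87 ± 0.83, adjusted p = 0.232), SPRR1B (-2.59 ± 0.56, adjusted p = 0.179) and SPRR3 (-2.12 ± 0.32, adjusted p = 0.0965) did not pass limma's test between genotypes. SPRR1A was -1.49 without KO replicate 2 and -4.26 without KO replicate 1, a wider range than its standard error. For SPRR1B the values were -1.74 and -3.45. By size all 7 genes were among the 27 lowest of 12925, where SPRR2D was at place 2, SPRR2E at place 3, SPRR2F at place 7, SPRR1A at place 9, SPRR2A at place 11, SPRR1B at place 13 and SPRR3 at place 27. The median difference of all genes was 0.09 and that of transcripts under 1 kb was -0.02. No gene passed in this comparison when any 1 of the 4 IL-1α libraries was left out, with SPRR2D then between -3.82 and -2.98 and SPRR2A between -3.14 and -2.43.

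**Figure D3:**
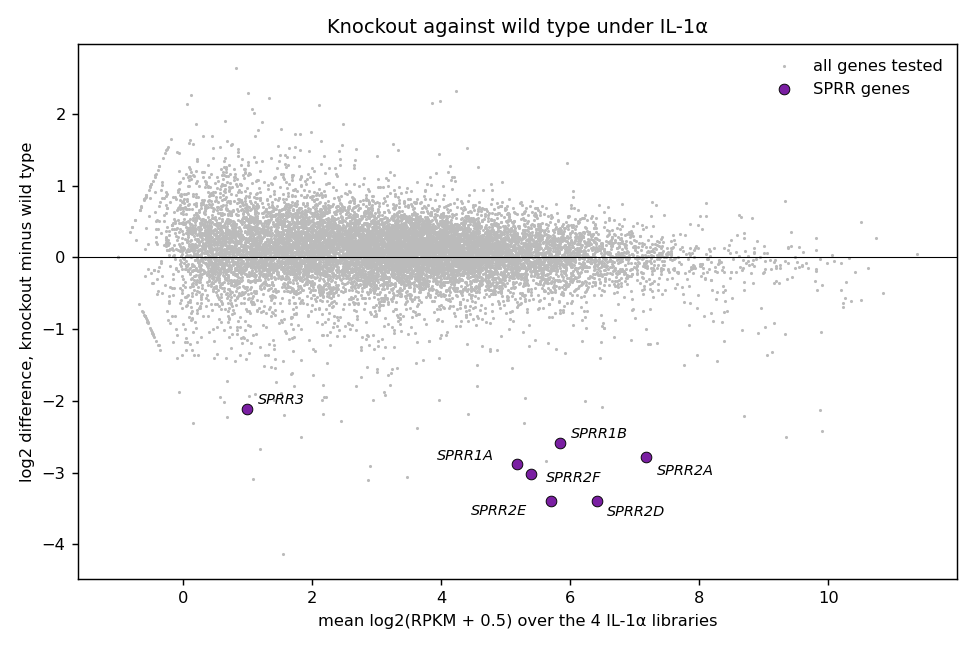
Log2 difference of KO minus WT cells under IL-1α for the 12925 genes tested, against their mean level over the 4 IL-1α libraries (both on the log2(RPKM + 0.5) scale). The 6 SPRR1 and SPRR2 genes lie between -2.59 and -3.40, below nearly all genes of like level, and SPRR3 at -2.12 lies at a low level.

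The SPRR genes shared the direction of the replicate gap in WT cells, while in KO cells the size of the gap differed from gene to gene. In WT IL-1α cells replicate 1 was above replicate 2 for 7 of 7 genes (48.8% of all genes), by 1.45-fold for SPRR3 to 1.79-fold for SPRR2D on the pseudocount scale, where the median gap of all genes in either direction was 1.14-fold. In KO IL-1α cells replicate 1 exceeded replicate 2 by 6.84-fold for SPRR1A, a gap reached by 11 genes (0.0851%). The gap was 3.28-fold for SPRR1B, 2.61-fold for SPRR2E, 2-fold for SPRR2F, 1.16-fold for SPRR2A and 1.08-fold for SPRR2D, and SPRR3 lay the other way at 0.709-fold. A gap of at least 2-fold was seen for 4.58% of all genes in the KO pair and 1.44% in the WT pair.

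Without stimulation, with 1 library per genotype and so no test, 4 of the 7 SPRR genes were lower in KO than in WT cells beyond counting error, as were 34.8% of all genes. The read ratio of KO to WT was 0.137 for SPRR2D (exact 95% interval 0.0451 to 0.350; 6 and 21 reads), 0.230 for SPRR2A (0.138 to 0.374; 26 and 54 reads) and 0.444 for SPRR1B (0.352 to 0.561; 144 and 155 reads). These reads were drawn from libraries of 34967592 and 16726858 reads, and the intervals cover counting error only. SPRR3 had 0 and 9 reads, with an upper bound of the ratio of 0.242. The ratio of SPRR1A was 0.679 (0.419 to 1.11; 44 and 31 reads) and that of SPRR2E 0.837 (0.213 to 3.90; 7 and 4 reads), so a difference was not detectable at this depth, and both changed sign on the log2 scale (0.07 and 0.41) when a trend with transcript length was removed.

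On the pseudocount scale a 2-fold difference, where the higher library reached 1 RPKM, was found for SPRR1B (-1.11), SPRR2A (-1.72) and SPRR2D (-1.64), or 3 of 7 genes, against 4.11% of all genes in that direction and 6.53% in both. Transcripts under 1 kb had a median of -0.51 in this comparison, against -0.01 for all genes. With the length trend removed SPRR2A was at -1.21, SPRR2D at -1.13 and SPRR1B at -0.57, so SPRR1B then missed 2-fold.

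The difference between the 2 responses, KO minus WT, was negative for all 7 genes (above 0 for 60.4% of all genes), but no gene of the 12925 passed limma's interaction test (567 had an unadjusted p under 0.05). SPRR2E had the lowest value of all genes at -3.29 ± 0.80 (unadjusted p = 0.00602, adjusted p = 0.966) and SPRR2F came at place 3 from the lowest at -3.03 ± 0.67 (unadjusted p = 0.00384, adjusted p = 0.966). SPRR2F had 0 reads in both unstimulated libraries, so its value equals its KO minus WT difference under IL-1α. With voom SPRR2E was at -3.16 (limma unadjusted p = 0.162) and SPRR2F at -2.04 (unadjusted p = 0.507). SPRR2A, whose unstimulated level was already lower in KO cells, was at -1.06 ± 0.44, and SPRR2D at -1.75 ± 0.49. The SPRR2D value depended on the scale, at -0.95 with a pseudocount of 0.1, -0.63 with voom and -2.28 with the length trend removed, and SPRR2A ran from -0.69 with voom to -1.59 with the length trend removed. SPRR1A was at -2.41 ± 1.44, SPRR1B at -1.48 ± 0.96 and SPRR3 at -0.98 ± 0.56, each with an adjusted p = 0.966. Without KO replicate 2 SPRR1A was at -1.02 and SPRR1B at -0.62, and without KO replicate 1 they were at -3.80 and -2.34. SPRR3 reversed to 0.03 with a pseudocount of 0.1 and to 2.39 on rebuilt reads with voom. As a ratio of mean RPKM the SPRR2 sum was 68.2-fold higher under IL-1α in KO cells and 139-fold higher in WT cells.

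The make-up of the SPRR transcripts changed with stimulation. SPRR1B supplied 20.1% and 11.1% of the summed RPKM of the 7 genes in KO IL-1α cells, 12.1% and 11.7% in WT IL-1α cells, 64.9% in unstimulated KO cells and 58.9% in unstimulated WT cells. The unstimulated libraries were thus apart from all 4 IL-1α libraries, in which SPRR2 genes predominated. Within the SPRR2 sum, SPRR2A supplied 44.7% and 53.5% in KO IL-1α cells, 39.6% and 40.7% in WT IL-1α cells, 66.8% in unstimulated KO cells and 68.5% in unstimulated WT cells. SPRR2D supplied 20.4% and 26.0% of it in KO IL-1α cells and 30.2% and 28.4% in WT IL-1α cells. SPRR2E (19.4% and 9.97% in KO, 17.4% and 18.2% in WT IL-1α cells) and SPRR2F (15.5% and 10.5% in KO, 12.74% and 12.68% in WT IL-1α cells) overlapped between genotypes. The shares of SPRR2A and SPRR2D, which were not tested, separated the genotypes under IL-1α without overlap, SPRR2A being the larger and SPRR2D the smaller in KO cells. They are parts of the same sum, so a larger share of SPRR2A lowers the others and the separations are not independent. Reads may also be shared among paralogs.

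**Figure D4:**
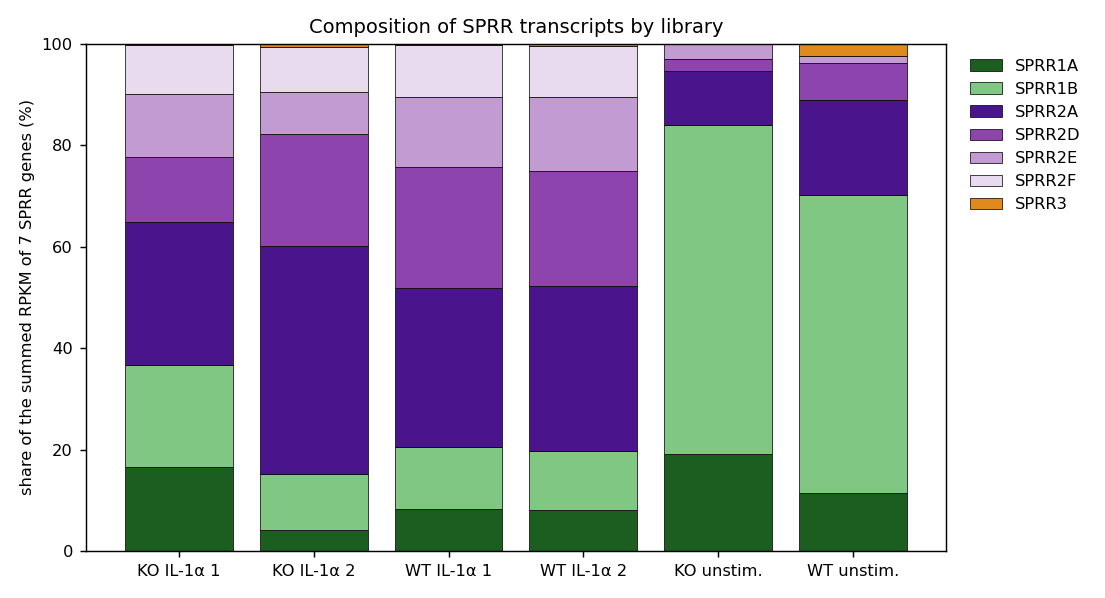
Share of each SPRR gene in the summed RPKM of the 7 genes, in percent, 1 bar per library. SPRR1B (light green) makes up 64.9% and 58.9% in the unstimulated KO and WT libraries and 11.1% to 20.1% in the IL-1α libraries, where the SPRR2 genes (purple) make up most of the bar.

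The order of levels within a library, per length of transcript, was SPRR2A, SPRR2D, SPRR2E, SPRR1B, SPRR2F, SPRR1A, SPRR3 in both WT IL-1α libraries. In KO replicate 1 SPRR1B and SPRR1A came directly after SPRR2A, whereas in KO replicate 2 SPRR2D came directly after SPRR2A, and SPRR1A was the last but 1. Neighbours in the KO order were often close, such as SPRR2D (26.8 RPKM) and SPRR2E (25.4 RPKM) in replicate 1, whose exact 95% counting intervals (24.2 to 29.5 and 22.9 to 28.1 RPKM) overlapped. SPRR1B led in both unstimulated libraries.

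The remaining SPRR genes in the table were at low levels. SPRR2C, a pseudogene next to SPRR2F, had 0.541 and 0.248 RPKM in KO IL-1α cells, 3.72 and 1.52 RPKM in WT IL-1α cells and 0 reads in both unstimulated libraries. It followed the order of its neighbours without passing any test (KO minus WT under IL-1α -1.73, limma adjusted p = 0.195). SPRR2B was seen as 3 reads in each WT IL-1α library and 0 elsewhere, and SPRR2G was listed at 0 throughout. SPRR4, at the other end of the cluster, had 0.986 and 0.408 RPKM in KO IL-1α cells, 0.828 and 0.437 RPKM in WT IL-1α cells, 0.270 RPKM in unstimulated KO cells and 0.484 RPKM in unstimulated WT cells. Its genotypes overlapped under IL-1α.

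Across the epidermal differentiation complex, from S100A10 to S100A1 (1649 kb, 69 genes in the table), the 4 highest IL-1α responses of either genotype were those of the SPRR2 genes. Beside the 7 SPRR genes, 20 genes of this region were tested, the pseudogene SPRR2C among them. In KO cells 18 of these 20 had a log2 response above 0 (47.2% of all genes) and 1 passed (S100A9), with a median of 0.13. In WT cells 6 of the 20 were above 0 (37% of all genes) and none passed limma's test, with a median of -0.42. Between KO and WT cells under IL-1α 1 of the 20 was above 0 (61.1% of all genes) and none passed, with a median of -0.60 and a range of -1.98 to 0.12. The nearest tested gene beyond the cluster on one side, PRR9, a proline-rich protein gene, was at 1.79 and 1.70 RPKM in KO IL-1α cells, against 9.77 and 7.18 RPKM in WT IL-1α cells (-1.98 ± 0.23, limma adjusted p = 0.0512). Without stimulation PRR9 had 0.980 RPKM in KO and 1.855 RPKM in WT cells. Its log2 response was 0.60 ± 0.28 in KO cells and 1.91 ± 0.28 in WT cells (limma adjusted p = 0.0672), passing in neither genotype. On the other side lies IVL, which encodes involucrin, the scaffold of the envelope. It had 29.7 and 12.7 RPKM in KO IL-1α cells, 71.4 and 84.0 RPKM in WT IL-1α cells, 36.8 RPKM in unstimulated KO cells and 130 RPKM in unstimulated WT cells. Involucrin RNA thus differed between genotypes in the same direction as the SPRR genes (-1.96 ± 0.37 under IL-1α, adjusted p = 0.150), while it was not higher under IL-1α in either genotype.

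**Figure D5:**
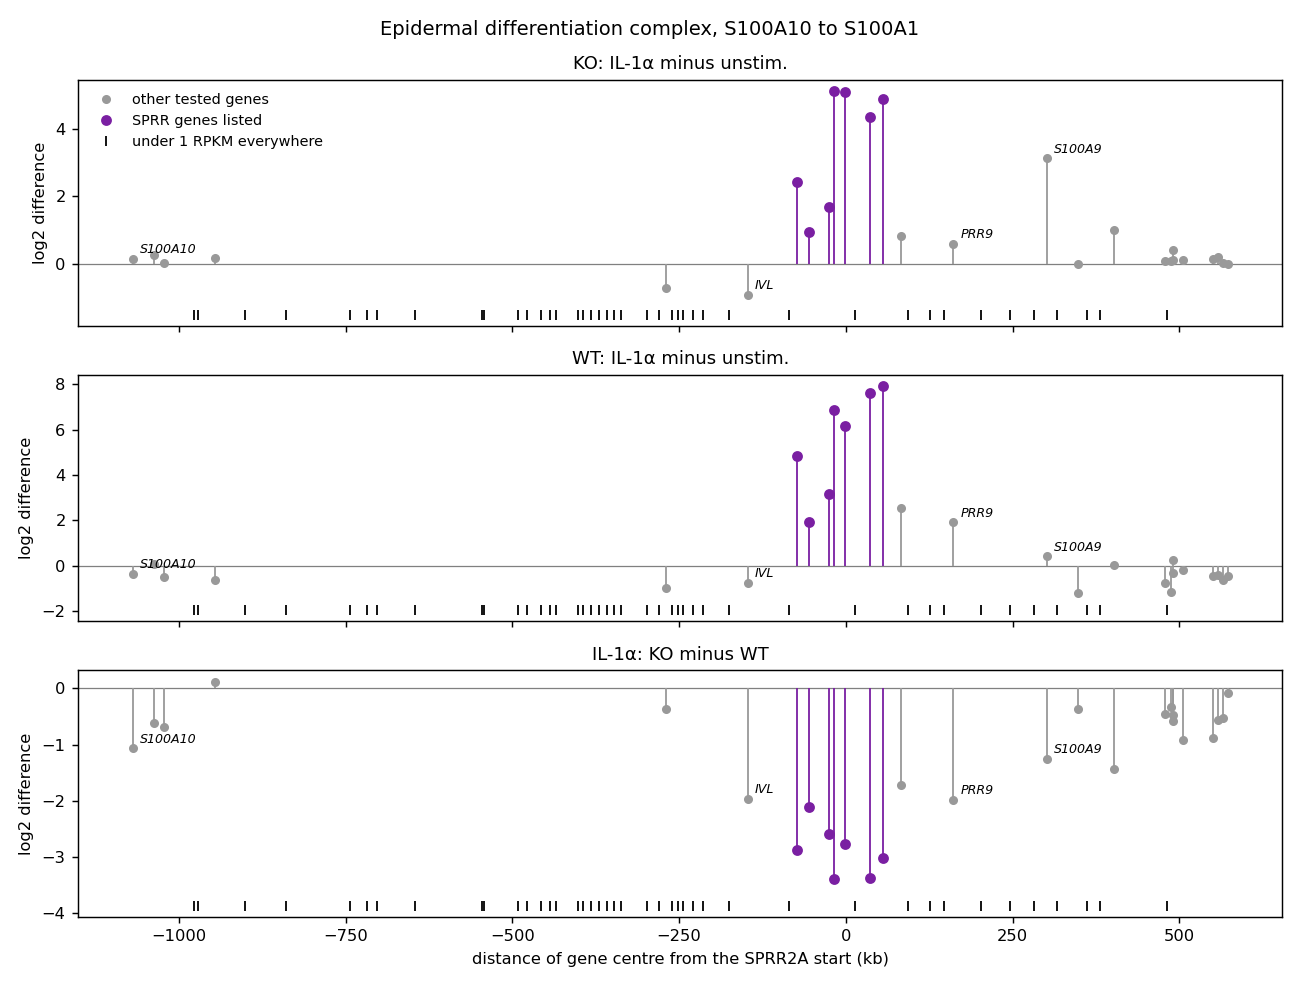
Log2 differences of genes along the epidermal differentiation complex, by distance of the gene centre from the SPRR2A start in kb. The 7 listed SPRR genes are in purple and other tested genes in grey, with ticks for genes under 1 RPKM everywhere. Each panel has its own vertical scale. For the IL-1α response the purple stems reach 5.12 in KO and 7.91 in WT cells. The other tested genes stay at or below 3.13 (S100A9) and 2.54 (the pseudogene SPRR2C).

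Other components and cross-linkers of the cornified envelope did not follow the SPRR genes as a group. Of 46 such genes 14 were tested and 11 were listed at 0. In KO cells none of the 14 passed under IL-1α (median -0.49), and in WT cells 1 passed (0.217% of all genes), with a median of -0.62. That gene was PI3, which encodes the protease inhibitor elafin, itself an envelope substrate: 26.2 and 12.6 RPKM in KO IL-1α cells, 51.0 and 40.2 RPKM in WT IL-1α cells, 0.676 RPKM in unstimulated KO cells and 1.41 RPKM in unstimulated WT cells. It rose by 4.58 in WT cells (limma adjusted p = 0.0289), and its KO response was 3.99 (adjusted p = 0.0652). Between genotypes under IL-1α none passed (median -0.17). Without stimulation 3 of 14 were at least 2-fold lower in KO cells, against 4.11% of all genes: IVL, TGM1, the transglutaminase that anchors the envelope, at 4.31 RPKM in KO and 12 RPKM in WT cells, and KRT10, a suprabasal keratin, at 40.1 RPKM in KO and 119 RPKM in WT cells. Under IL-1α TGM1 (-1.09 ± 0.20, limma adjusted p = 0.145) and KRT10 (-0.92 ± 0.30, adjusted p = 0.265) were lower in KO cells too. In that comparison 5 of the 14 were above 0 (61.1% of all genes). PPL, which encodes periplakin, was the other abundant member beside IVL, at 45.6 to 72.4 RPKM throughout.

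S100 genes, which flank the SPRR cluster and encode calcium-binding proteins, were mostly lower in the unstimulated KO library. Of 16 genes 13 were tested, and 11 were at least 2-fold lower in unstimulated KO cells (4.11% of all genes), with a median of -1.28, against -0.51 for transcripts under 1 kb. S100A9, a subunit of calprotectin, rose in KO cells by 3.13 (limma adjusted p = 0.0300), where it stood at 3.51 and 4.29 RPKM under IL-1α and was listed at 0 without; WT cells had 10.2 and 9.72 RPKM under IL-1α and 7.32 RPKM without. It was the only S100 gene to pass in the tested comparisons. All 13 had a response above 0 in KO cells (47.2% of all genes; median 0.12), and 3 of 13 did in WT cells (37% of all genes; median -0.44).

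Among 37 transcription factors known to act at SPRR or envelope genes, AP-1 subunits included, 29 were tested. No member passed in KO cells (median 0.17), and ETS1 passed in WT cells (1.74, limma adjusted p = 0.0446; list median 0.25). ETS1, an Ets family factor, stood at 69.7 and 76.4 RPKM in KO IL-1α cells, 87.6 and 89.6 RPKM in WT IL-1α cells, 34.9 RPKM in unstimulated KO cells and 26.1 RPKM in unstimulated WT cells. Between genotypes under IL-1α none passed (median -0.06). FOSL1, an AP-1 subunit and the most abundant factor of the list, had 222 and 348 RPKM in KO IL-1α cells, 492 and 306 RPKM in WT IL-1α cells, 172 RPKM in unstimulated KO cells and 186 RPKM in unstimulated WT cells, and its genotypes overlapped under IL-1α. ELF3, an epithelial Ets factor, was at 18.3 RPKM in unstimulated KO cells and 44.5 RPKM in unstimulated WT cells, the only member past 2-fold there (1 of 29, against 4.11% of all genes lower). Under IL-1α ELF3 was at 15.4 and 11.6 RPKM in KO cells and 37.9 and 26.0 RPKM in WT cells. Its log2 difference was -1.20 ± 0.24 (limma adjusted p = 0.162), and 11 of the 29 factors were above 0 (61.1% of all genes). All of these are RNA levels and say nothing of the activity of the proteins.

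The genes whose levels were most alike to the SPRR genes over the 6 libraries were sought among 239 genes with at least 5 RPKM in 1 library and a range of at least 2 on the log2 scale. For the SPRR2 sum these were CDKN1A (r = 0.998), which encodes a cell cycle inhibitor, RAP1GAP (r = 0.990) and IGFL1 (r = 0.987). Like SPRR2A and SPRR2D, IGFL1 passed limma's test for the WT response (3.77, adjusted p = 0.0134) and the KO response (3.27, adjusted p = 0.0387). It also passed between genotypes under IL-1α (-2.30, adjusted p = 0.0467). RAP1GAP passed for the WT response only (limma adjusted p = 0.0478), and CDKN1A passed in none of these comparisons. CDKN1A stood at 59.2 and 58.2 RPKM in KO IL-1α cells, 108 and 91.3 RPKM in WT IL-1α cells, 24.9 RPKM in unstimulated KO cells and 32.1 RPKM in unstimulated WT cells, a similar order over a far smaller range. SPRR1A and SPRR1B were both most like OAS1, an interferon-induced enzyme (r = 0.983 and 0.998), which like them was lower in KO replicate 2 (11.7 RPKM) than in KO replicate 1 (24.3 RPKM). LIF, a cytokine, was also among the 3 most alike to both. SPRR2E and SPRR2F were most like the chemokine gene CCL5 (r = 0.998 and 0.995), at 9.56 and 5.65 RPKM in KO IL-1α cells, 33.0 and 28.4 RPKM in WT IL-1α cells, 1.17 RPKM in unstimulated KO cells and 0.928 RPKM in unstimulated WT cells. SPRR3 was most like PRR9 (r = 0.985). These values describe 6 points that share 4 conditions and carry no test.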

How the data were processed

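Poly-A RNA was sequenced from 6 HaCaT libraries. Per the labels' protocols TRIzol and a column clean-up gave the RNA, and a stranded TruSeq kit the libraries. The submitters' processing notes name bcl2fastq (2.20.0.422), STAR and HOMER on hg19, the last pair without versions. Per the file headers the deposited RPKM values (columns headed FPKM) were counted over exons with 1 row per gene symbol, and the strand setting is not stated, so reads of antisense transcripts may be included.

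Values were used as deposited. Depth was recovered as the read number that turned RPKM of 0.02 to 1 into whole reads within 0.1 read (98.0% to 99.8% of values). Genes reaching 1 RPKM in any library (12925) entered 1 limma fit (version 3.58.1 under R 4.3.3) of log2(RPKM + 0.5). Each of the 4 groups had a coefficient, variances were moderated towards a trend with the mean, and p-values were adjusted by Benjamini and Hochberg's method over all genes, at 0.05; fold changes on this scale understate changes of low genes. The spread came from the IL-1α pairs alone (2 residual and 4.2 prior degrees of freedom). The fit was tried on simulated reads for KO against WT cells under IL-1α only. The responses and the interaction were not tried in this way. Unstimulated cells, with 1 library per genotype, were compared by size only, and 0 reads were bounded at 3 reads. Read intervals are exact at 95% and cover counting error only.

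The members and gene lists were chosen with earlier results of these data known. Beside the 7 genes and the SPRR2 sum, genes were named if they were other SPRR genes, passing members of a list (at most 4 per comparison) or its 2 most abundant, the 3 most alike per profile, direct neighbours or MAPK14. 1 gene that this rule names is not reported here. Upstream sequences came from RefSeq (GRCh38.p14) and transcripts for identity from GENCODE. Same-numbered replicates did not deviate together over all genes (r = 0.00860 across 12925 genes), so the numbers were not used as pairs in the main fit. The SPRR genes nevertheless all had replicate 1 above replicate 2 in WT cells. In KO cells SPRR1A, SPRR1B, SPRR2E and SPRR2F had it above by at least 2-fold. The KO gaps of SPRR2A and SPRR2D were smaller than the median of all genes, and SPRR3 lay the other way. Alternatives were other pseudocounts (0.1 and 1), no filter, median-of-ratios scaling, removal of a length trend, voom on rebuilt reads, each IL-1α library left out and a replicate block.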

Additional observations from a re-analysis of the deposited data

How the results depend on the processing

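The number of genes passing moved with the processing. The IL-1α response in KO cells gave 9 genes, 5 with a pseudocount of 1, 65 without a filter on low values (1 higher and 64 lower, where 9 were higher and 0 lower), 21 with a length trend removed, 2 with voom on rebuilt reads and 0 to 0 with 1 library left out (281 to 2086 at an unadjusted p under 0.05). The WT response gave 28 genes (26 higher), 49 without a filter (2 higher and 47 lower, no SPRR gene among them), 53 with median-of-ratios scaling, 96 with the length trend removed, 11 with voom and 0 to 46 with 1 library left out. KO against WT cells under IL-1α gave 20 genes, 7 with a pseudocount of 0.1, 0 without a filter (2637 at an unadjusted p under 0.05), 40 with the length trend removed, 55 with voom and 0 to 0 with 1 library left out (575 to 2545 unadjusted); with the replicate number as a block it gave 62 genes, and SPRR1B (adjusted p = 0.0145), SPRR2E and SPRR2F (each 0.00525) then passed as well. The interaction gave 0 genes and 87 without a filter. With the length trend removed the log2 difference of the SPRR2 sum was 7.54 for the WT response (6.97 otherwise), -1.80 for the interaction (-1.27) and -1.29 between unstimulated KO and WT cells (-1.80). The SPRR3 interaction (-0.98) reversed to 0.0267 with a pseudocount of 0.1 and to 2.39 with voom. Over all alternatives the KO to WT difference under IL-1α kept its sign for each of the 7 genes; SPRR2D ran from -3.82 to -2.98 and SPRR2A from -3.14 to -2.43. In KO cells SPRR2F gained a response call with a pseudocount of 0.1 (adjusted p = 0.0235) and with the length trend removed (0.0280), and the SPRR2 response calls lost without the filter and with voom are given with those results. Under IL-1α SPRR2A lost its call between genotypes with a pseudocount of 0.1 (limma adjusted p = 0.0537), and SPRR2A and SPRR2D lost theirs without the filter (0.293 and 0.291). SPRR2E and SPRR2F gained a call with voom (each 0.0297), and SPRR2F also with the length trend removed (0.0436). The cause of these shifts was not tested.

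Limits: with 1 unstimulated library per genotype, both responses and the interaction rest on 1 baseline each, and unstimulated SPRR2D, SPRR2E, SPRR2F and SPRR3 had 0 to 21 reads. Fits without 1 library assume that the lone sample varies like the other pair. They also have fewer residual degrees of freedom than the 2 of the main fit, so a call lost there need not reflect a changed difference. Paralog sharing of reads limits single SPRR2 values and, less, those of SPRR1A and SPRR1B.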
